A study of Mus musculus with 2 samples.

Results

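The matrix metalloproteinases (MMPs), the ADAMTS proteases, the ADAMTS-like proteins and the tissue inhibitors of metalloproteinases (TIMPs) were taken as all gene symbols that consist of Mmp, Timp or Adamts and a number with at most 1 letter, or of Adamtsl and 1 digit. This rule found 50 of the 31053 genes in the count tables, of which 22 were MMP, 4 TIMP, 19 ADAMTS and 5 ADAMTSL genes. They were measured by single-cell RNA sequencing of dissociated mouse uterus at gestational day 4, in 1 library of Mettl14 d/d tissue and 1 library of Mettl14 f/f tissue. Mettl14 encodes a subunit of the complex that methylates adenosine in messenger RNA, and by the usual notation d/d is the deleted genotype and f/f the floxed control. Both libraries came from whole uterus digested with collagenase, dispase and DNase, and the labels name neither the Cre driver, nor the deleted exons, nor the number of animals. With 1 library per genotype no difference below has a replicate check. All intervals are exact 95% intervals that cover counting error only, and no p-value is given because cells of 1 library are not replicates.

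MMPs are zinc-dependent endopeptidases that are made as inactive precursors and cleave collagens, other matrix proteins and signalling molecules outside the cell or at its surface. ADAMTS proteases cut proteoglycans such as versican and the propeptides of collagens, ADAMTS-like proteins share their accessory domains but lack the protease domain, and TIMPs bind and block the active enzymes. In the uterus these genes are known for their part in the matrix turnover of the cycle, implantation and decidualization.

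After filtering, the d/d library held 5977 cells and the f/f library 7095 cells, with medians of 5217 and 6085 UMIs (unique molecular identifiers, each standing for 1 captured RNA molecule). The libraries shared 8 cell barcodes. Cells were clustered without the 50 genes, and a cluster was given a class by marker genes. Every class name below means cells that are like that class by its markers. Comparisons were made in the 7 classes that reached 100 cells in each library: stroma (1702 d/d and 4709 f/f cells), smooth muscle (1477 and 446), pericytes (1198 and 376), blood endothelium (604 and 522), macrophages or monocytes (304 and 245), epithelium (146 and 180) and dendritic cells (141 and 154). Mettl14 was at 2.38 CPM (UMIs scaled to 1000000 per class and library) in d/d stroma, against 14.5 CPM in f/f stroma, but at 18.3 CPM in d/d and 19.0 CPM in f/f blood endothelium. A list of 20 immediate early and heat shock genes, known to respond to tissue dissociation as well, had 19 genes at least 1.5-fold higher in d/d stroma (median log2 fold 2.28), 19 in pericytes (1.80), 20 in blood endothelium (1.66), 16 in smooth muscle (1.05), 15 in macrophages (1.21), 4 in epithelium (0.20) and 1 in dendritic cells. Their part in the results below was not tested.

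A run of 9 MMP genes, Mmp13, Mmp12, Mmp1b, Mmp3, Mmp10, Mmp8, Mmp27, Mmp20 and Mmp7, lies on chromosome 9 of the mouse genome build GRCm38. It includes the gene with the largest difference between the libraries among those named here, Mmp12, and a stromal gene, Mmp3. Their promoters are shown because 7 of these 9 genes share the AP-1-like motif TGANTCA, where N is any base, just upstream of a start. In Mmp20 the middle base is A, and in the others shown it is C or G. The pattern with N reads the same on both strands. Each line gives 20 bases on either side of the motif, 5′ to 3′ on the gene's own strand, with the motif in capitals.
Mmp13: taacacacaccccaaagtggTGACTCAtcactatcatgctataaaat
Mmp12: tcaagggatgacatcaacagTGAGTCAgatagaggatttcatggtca
Mmp1b: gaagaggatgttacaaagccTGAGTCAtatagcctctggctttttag
Mmp3: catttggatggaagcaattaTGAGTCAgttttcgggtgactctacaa
Mmp10: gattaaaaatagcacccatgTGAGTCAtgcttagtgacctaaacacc
Mmp20: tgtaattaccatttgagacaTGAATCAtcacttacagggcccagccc
Mmp7: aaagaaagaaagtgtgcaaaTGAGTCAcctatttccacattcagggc
These come from RefSeq promoters of GRCm38.p6, each covering 250 bases before to 50 bases after a start. The motif begins 35 bases before the start in Mmp13, 44 in Mmp12, 46 in Mmp3, 63 in Mmp10 and in Mmp7, 93 in Mmp1b and 95 in Mmp20. The Mmp3 window is chr9:7445756-7445802 on the plus strand. The Mmp12 window, chr9:7347310-7347356 on the plus strand, belongs to the RefSeq start at 7347374. Mmp12 and Mmp7 each have another RefSeq start, at 7344397 and 7692341, without the motif. A promoter was available for 35 of the 50 genes. The motif was in 7 of these, all 7 in the chromosome 9 run, and in none of the other 26. Genes without a promoter here include Mmp2, Mmp16, Mmp17, Mmp19, Adamts4, Adamts5, Adamts7 and Adamtsl1, and Adamts19 was left out of the lookup. The motif is thus not shown to be absent from the rest of the family. Of the 27025 genes in the table, 8.97% had it. The presence of these letters is a description and not evidence of binding, and a link of the motif to the differences was not tested.

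Of the 50 genes, 36 had at least 50 UMIs summed over both libraries in at least 1 compared class and are called measured in that class. Another 12 had between 1 and 49 UMIs in all kept cells, and Mmp1b and Mmp20 had none. A gene was given a highest class, the one of the compared classes and lymphatic endothelium with its highest CPM, where that class held at least 20 of its UMIs. By this rule 28 genes had a highest class in both libraries, and for 21 of them it was the same class. Stroma was the highest class of 15 genes in d/d and 10 in f/f, pericytes of 9 and 8, and blood endothelium of 3 and 4. By class, Mmp2, Mmp3, Mmp16 and Mmp23 were highest in stroma of both libraries, Adamts1, Adamts4, Adamts5 and Adamts12 in pericytes, Adamts9 in blood endothelium, Mmp17 in smooth muscle and Adamts16 in epithelium. Timp2 and Timp3 were highest in lymphatic endothelium, a class of 61 d/d and 81 f/f cells that was too small to compare, with 3035 CPM of Timp3 in d/d and 2512 CPM in f/f.

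**Figure D1:**
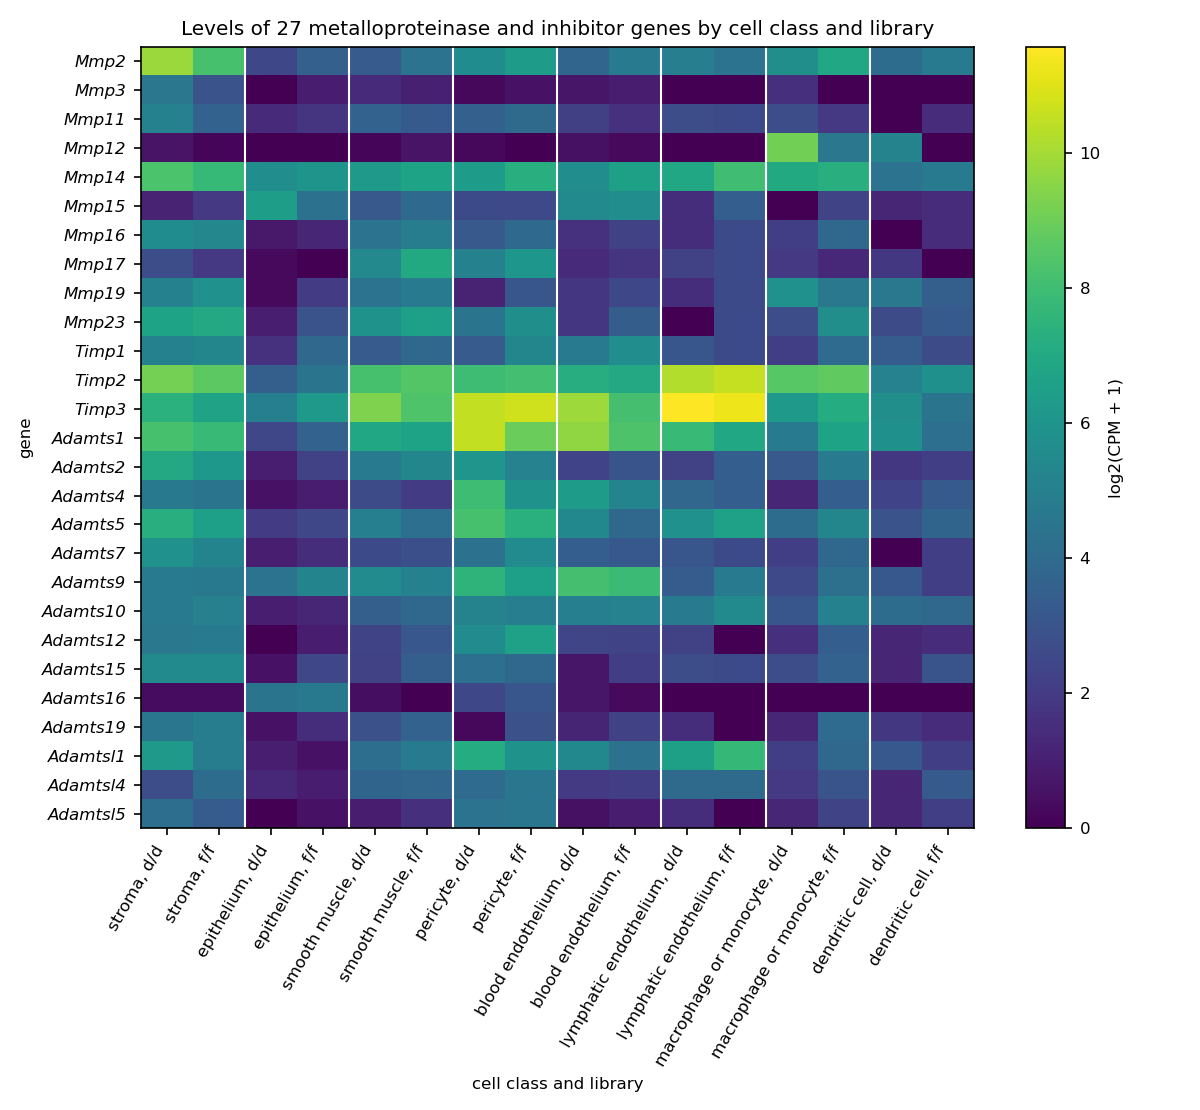
Levels of the 27 named genes (rows) as log2(CPM + 1), by cell class and library (columns, d/d left of f/f in each pair); brighter colours are higher levels. Timp3 is brightest in lymphatic endothelium, where it stood at 3035 CPM in d/d and 2512 CPM in f/f, and Mmp12 stands out in d/d macrophages at 547 CPM against 22.7 CPM in f/f macrophages.

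In stroma, 31 of the genes were measured. Of these, 12 were at least 1.5-fold higher in d/d, where 15.5% of all 12530 measured genes were, and 4 were at least 1.5-fold lower, where 20% of all were. Their median log2 fold (d/d over f/f) was 0.43, against -0.13 over all measured genes. The MMP genes had 4 of 9 higher and 2 lower, the TIMP genes 1 of 3 higher, the ADAMTS genes 4 of 14 higher and 1 lower, and the ADAMTSL genes 3 of 5 higher and 1 lower. The stroma of the libraries lay mostly in different clusters, which limits what the pooled values can show. One cluster, led by A2m and Itgbl1, held 1039 d/d and 14 f/f cells. Another pair, led by Angptl7 and Fst and by Slc6a2 and Tex15, held 12 and 15 d/d cells but 2232 and 1594 f/f cells. A cluster led by Clec3b and C3 held 585 d/d and 385 f/f cells and is called the shared cluster. Within it alone 5 of 26 measured genes were at least 1.5-fold higher in d/d (11.6% of all 8231 measured genes were) and 10 were lower (15.2% of all), with a median of -0.19 against -0.09 over all genes.

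Mmp2, the gelatinase that degrades type IV and denatured collagen, lies at chr8:92827291-92853420. It reached 905 CPM in d/d stroma (11774 UMIs) and 292 CPM in f/f stroma (9857 UMIs), a log2 fold of 1.63 with an interval of 1.59 to 1.67. In the shared cluster it stood at 794 CPM in d/d and 404 CPM in f/f (log2 fold 0.97, 0.85 to 1.10), so the difference was there too, at a smaller size. The d/d cluster led by A2m had 955 CPM, against 301 and 285 CPM in the 2 large f/f clusters. With every cell thinned to 2000 UMIs, 77.5% of 1593 d/d stromal cells and 43.0% of 4459 f/f stromal cells had an Mmp2 UMI, and unthinned the shares were 92.8% and 77.2%.

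Mmp14, the membrane-anchored enzyme known to activate the Mmp2 precursor together with Timp2, was at 311 CPM in d/d stroma and 213 CPM in f/f stroma. Its log2 fold was 0.55 (0.49 to 0.60), under the 1.5-fold mark, and within the shared cluster it was 0.37. Timp2 was at 559 CPM in d/d and 397 CPM in f/f stroma, or 0.49 on the log2 scale (0.45 to 0.54), with 0.30 for the shared cluster.

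Mmp11 (stromelysin-3), a secreted protease known from tissue remodelling, was at 33.0 CPM in d/d stroma and 11.6 CPM in f/f stroma (log2 fold 1.51, 1.30 to 1.71). The difference was larger in the shared cluster, with 82.9 CPM in d/d (220 UMIs) and 12.8 CPM in f/f (23 UMIs), a log2 fold of 2.70 (2.08 to 3.39). After thinning, 11.5% of 512 d/d cells and 3.33% of 330 f/f cells of that cluster had an Mmp11 UMI. Mmp3 (stromelysin-1) had 23.1 CPM in d/d stroma and 6.66 CPM in f/f stroma, a log2 fold of 1.80 (1.54 to 2.05). Within the shared cluster, which is the main source of its UMIs, it had 92.4 CPM in d/d and 96.5 CPM in f/f (-0.06, -0.35 to 0.23). Outside it Mmp3 was at 5.87 CPM in the d/d cluster led by A2m (56 UMIs), against 1.73 and 0.735 CPM in the 2 large f/f clusters (27 and 9 UMIs).

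Timp3, the inhibitor that stays bound to the matrix, was at 165 CPM in d/d stroma and 101 CPM in f/f stroma (log2 fold 0.71, 0.63 to 0.79). In the shared cluster it had 231 CPM in d/d (614 UMIs) and 53.3 CPM in f/f (96 UMIs), a log2 fold of 2.12 (1.81 to 2.45). That made Timp3 and Mmp11 the 2 measured genes with the largest folds in the shared cluster. Timp1, a soluble inhibitor, went the other way there, with 47.1 CPM in d/d and 91.5 CPM in f/f (-0.96, -1.30 to -0.61), and had 32.9 CPM in d/d and 38.9 CPM in f/f over the whole stroma (-0.24).

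Of the MMP genes that were lower in d/d stroma, Mmp19 had 32.9 CPM in d/d and 56.8 CPM in f/f (log2 fold -0.79, -0.94 to -0.64), and -0.87 in the shared cluster. Mmp23, a membrane-linked member with an unusual domain order, was at 103 CPM in d/d and 124 CPM in f/f stroma (-0.27). In the shared cluster it was at 140 CPM in d/d and 271 CPM in f/f (-0.95, -1.15 to -0.75). Mmp15 had only 16 UMIs in d/d and 93 in f/f stroma, with -1.16. Mmp16, another membrane-type enzyme, was at 48.9 CPM in d/d and 39.5 CPM in f/f (0.31), and 0.04 in the shared cluster.

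Several stromal ADAMTS genes had another direction in the shared cluster than over all stroma. Adamts5, an aggrecan and versican protease, was at 158 CPM in d/d stroma and 91.4 CPM in f/f stroma (log2 fold 0.79). Within the shared cluster it was lower in d/d, at 119 CPM against 208 CPM in f/f (-0.81, -1.03 to -0.59). Adamts2, which removes the amino-terminal propeptide of fibrillar procollagens, likewise had 124 CPM in d/d and 71.1 CPM in f/f over all stroma (0.80), but 317 CPM in d/d and 402 CPM in f/f in the shared cluster (-0.34, -0.49 to -0.20). Adamts1, a versican protease that is known as a progesterone-induced gene in the mouse ovary, had 297 CPM in d/d and 220 CPM in f/f over all stroma (0.43), but 558 CPM in d/d and 691 CPM in f/f in the shared cluster (-0.31). For these 3 genes the direction over all stroma is thus not the direction within the cluster that both libraries fill.

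Of the rest, Adamts7 was at 56.8 CPM in d/d and 35.9 CPM in f/f stroma (0.66), with 0.34 in the shared cluster on 54 and 29 UMIs. Adamts15 was within 1.5-fold over all stroma (0.02) and at -0.99 in the shared cluster, with 30.5 CPM in d/d and 60.5 CPM in f/f. Adamts14, a procollagen protease like Adamts2, had 10.2 CPM in d/d and 16.3 CPM in f/f stroma (-0.68). Adamts3, the third of those procollagen proteases, had 57 UMIs in d/d and 65 in f/f stroma (1.19), and Mmp17 had 73 and 94 UMIs (1.01). Adamts4, Adamts9, Adamts10, Adamts12 and Adamts19 ranged from -0.34 to 0.21 over all stroma.

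All 5 ADAMTSL genes were measured in stroma, and they did not move together. Adamtsl1 was at 74.1 CPM in d/d and 27.7 CPM in f/f (log2 fold 1.42, 1.29 to 1.55), with 174 CPM in d/d and 124 CPM in f/f in the shared cluster (0.49). Adamtsl5, a microfibril-associated member, was at 17.0 CPM in d/d and 9.24 CPM in f/f (0.88), with 0.75 in the shared cluster. Adamtsl3 had 57 UMIs in d/d and 27 in f/f stroma (2.45), of which 54 and 24 lay in the shared cluster, where its log2 fold was 0.61 with an interval that spans 0. Adamtsl4, which binds fibrillin microfibrils, was lower, at 5.69 CPM in d/d and 16.3 CPM in f/f (-1.52, -1.89 to -1.17), and -1.16 in the shared cluster. Adamtsl2 was at 1.69 CPM in d/d and 1.92 CPM in f/f.

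**Figure D2:**
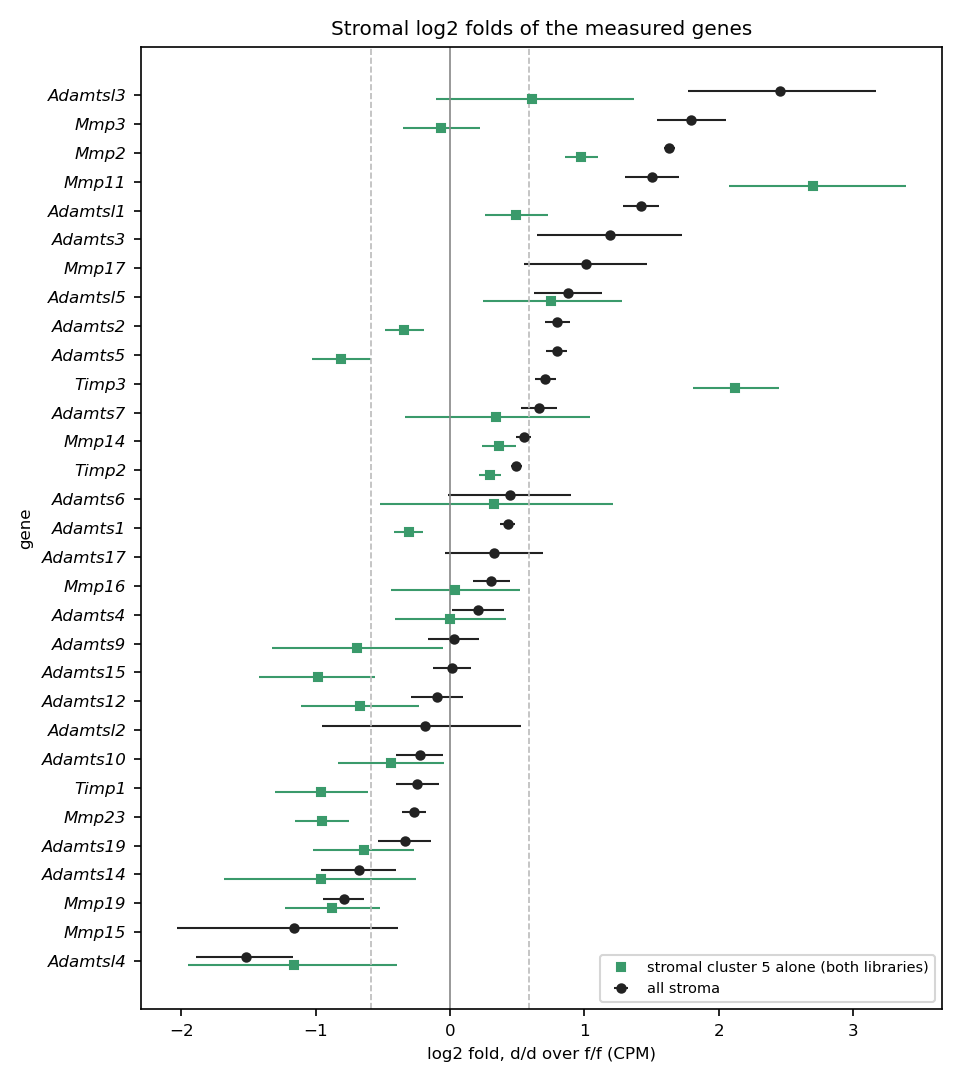
Log2 fold (d/d over f/f, horizontal axis) of each gene measured in stroma (vertical axis), for all stroma (black circles) and for the cluster that both libraries fill (green squares), with 95% intervals for counting error; dashed lines mark 1.5-fold. Mmp2, Mmp11 and Timp3 lie right of 0 in both, while Adamts5 is at 0.79 over all stroma but at -0.81 where both libraries have cells.

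**Figure D3:**
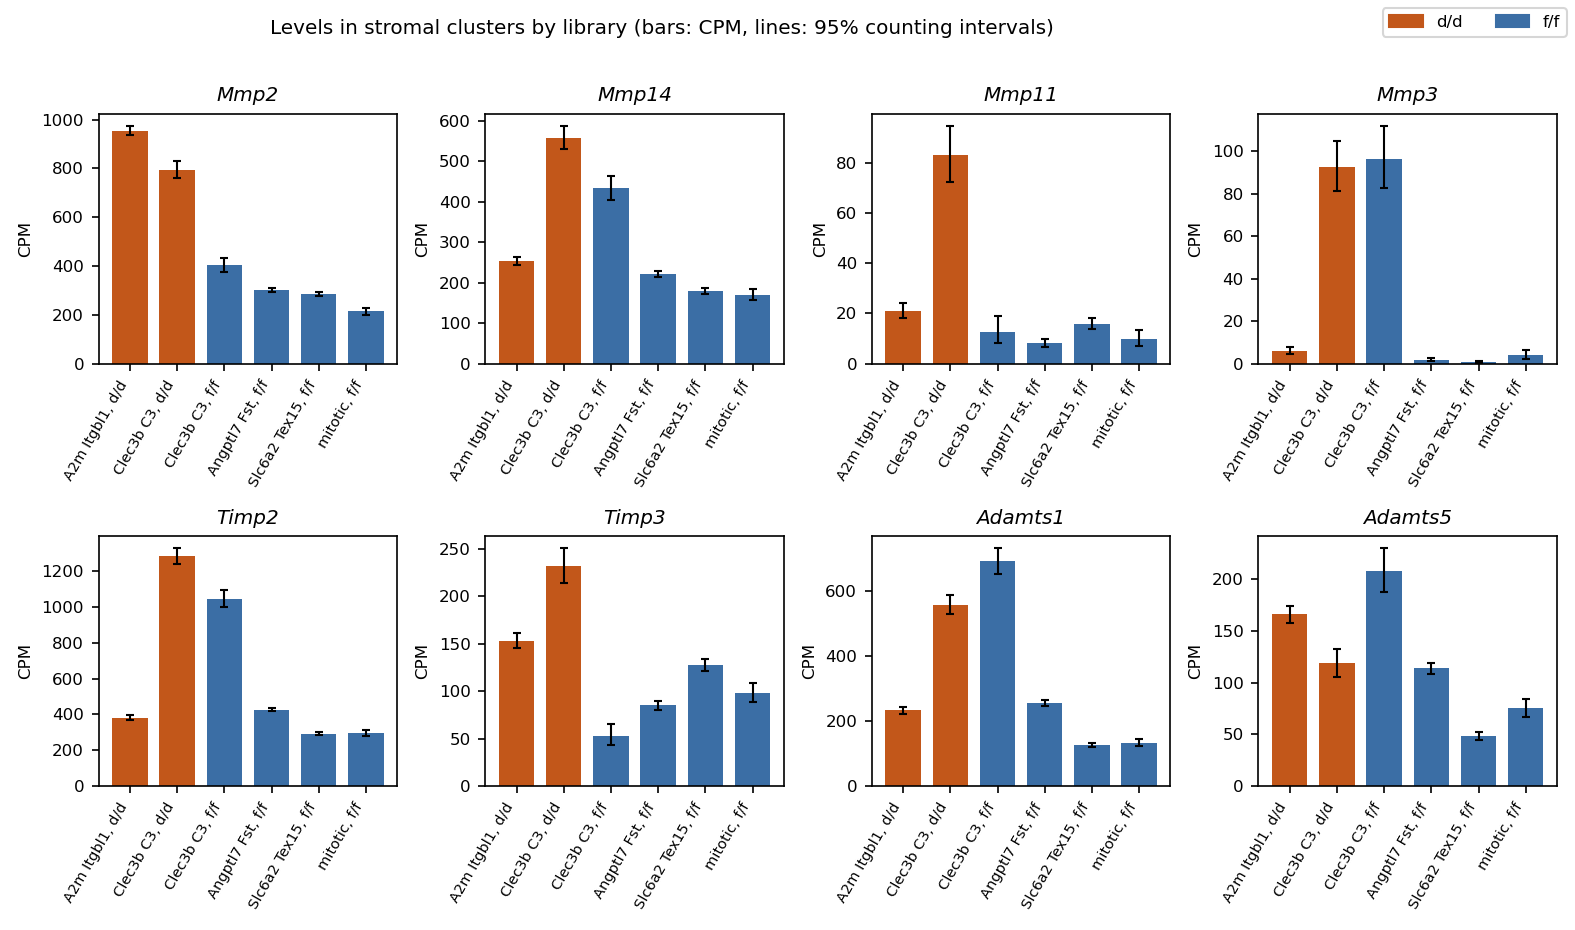
CPM of 8 genes (one panel each) in the stromal clusters, d/d in orange and f/f in blue, with 95% counting intervals; clusters are named by 2 leading genes, and the cluster led by Clec3b and C3 is the shared one. Mmp2 is at 794 CPM or more in both d/d bars and at 404 CPM or less in every f/f bar, while Mmp3 is highest in the shared cluster of both libraries (92.4 CPM in d/d and 96.5 CPM in f/f).

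In pericytes, 22 genes were measured. Of these, 7 were at least 1.5-fold higher in d/d (13.1% of all 9634 measured genes were) and 8 were lower (25.2% of all). With the other scaling, by TMM factors, the split was 8 higher and 6 lower. The median over all genes then went from -0.21 to 0.03, and no share over all genes is given for that scaling. By family, 6 of 10 ADAMTS genes were higher and 2 lower, while 5 of 6 MMP genes were lower and none was higher. In the pericyte cluster that is well filled in both libraries (609 d/d and 309 f/f cells) these counts were 4 higher and 1 lower of 9 ADAMTS genes, and 2 lower and none higher of 6 MMP genes. Adamts4, an aggrecan and versican protease at chr1:171250421-171260637, was at 248 CPM in d/d pericytes (1286 UMIs) and 58.4 CPM in f/f pericytes (122 UMIs), a log2 fold of 2.09 (1.82 to 2.37). Adamts1 was at 1450 CPM in d/d and 487 CPM in f/f pericytes (1.57, 1.48 to 1.67). Both genes were past 1.5-fold in the well-filled cluster too, with log2 folds of 2.17 for Adamts4 and 1.45 for Adamts1. After thinning, 30.2% of 1095 d/d and 11.5% of 347 f/f pericytes had an Adamts4 UMI, and the shares were 45.1% and 24.2% unthinned.

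Adamts9, which also cuts versican, was at 185 CPM in d/d and 90.4 CPM in f/f pericytes (log2 fold 1.03), and at 0.51 in the well-filled cluster. Adamts2 was at 64.1 CPM in d/d and 34.5 CPM in f/f pericytes (0.90), and at 1.39 there. Adamts5 and Adamtsl1 had pooled log2 folds of 0.88 and 1.28, but -0.69 and -0.91 in the well-filled cluster. Their level was high in the other pericyte cluster, led by Pln and Sncg, where Adamts5 had 509 CPM in 589 d/d cells and 564 CPM in 67 f/f cells, and Adamtsl1 had 256 CPM in d/d and 246 CPM in f/f. The part of the uneven filling of these clusters in the pooled values was not tested. In the well-filled cluster as a whole, 4 of 21 measured genes were higher (11.6% of all were) and 5 lower (22.4% of all).

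Among the genes lower in d/d pericytes, Timp1 was at 8.88 CPM in d/d and 39.2 CPM in f/f (log2 fold -2.14, -2.70 to -1.60), and at -1.62 in the well-filled cluster. Adamts7, Adamts12, Mmp17 and Mmp14 had log2 folds of -1.31, -1.02, -1.02 and -0.87. The 12 stromal marker genes summed to 5754 CPM in d/d and 6627 CPM in f/f pericytes, or 30.4% and 59.2% of their level in the stroma of the same library, and all 12 were above 0 in both. Their part in the result was not tested. Timp3 was at 1456 CPM in d/d and 1684 CPM in f/f pericytes (-0.21), within 1.5-fold.

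In blood endothelium, where Mettl14 itself was at about the same level in both libraries, 16 genes were measured. Of these, 5 were at least 1.5-fold higher in d/d (11.2% of all 9977 measured genes were) and 5 were lower (12.0% of all). Timp3, at chr10:86300372-86349506, was at 944 CPM in d/d (4492 UMIs) and 286 CPM in f/f (1325 UMIs), a log2 fold of 1.72 (1.63 to 1.81). Adamts1 was at 796 CPM in d/d and 324 CPM in f/f (1.30, 1.21 to 1.39), and Adamts4 at 83.0 CPM in d/d and 36.1 CPM in f/f (1.20, 0.94 to 1.47). Adamts5 and Adamtsl1 had log2 folds of 1.54 and 1.12. An endothelial cluster led by Dll4 and Sema3g held 95 d/d cells and 1 f/f cell, with 3394 CPM of Adamts1 and 2418 CPM of Timp3 in its d/d cells. Without that cluster the log2 folds were 1.57 for Timp3, 0.97 for Adamts1, 1.13 for Adamts4, 1.14 for Adamts5 and 1.06 for Adamtsl1, so all 5 stayed past 1.5-fold.

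Adamts9, which was highest in this class, had 282 CPM in d/d and 232 CPM in f/f endothelium (log2 fold 0.28). Mmp15, a membrane-type enzyme, had 43.9 CPM in d/d and 49.5 CPM in f/f (-0.17). Mmp14 and Timp1 were lower in d/d, with 49.2 CPM in d/d and 93.7 CPM in f/f for Mmp14 (-0.93) and 26.3 CPM in d/d and 49.9 CPM in f/f for Timp1 (-0.93). The stromal markers summed to 881 CPM in d/d and 1242 CPM in f/f endothelium, or 4.65% and 11.1% of their stromal level. Pericyte markers reached 7.25% in d/d and 3.50% in f/f of their level in pericytes, while Adamts1 had 796 CPM in endothelium and 1450 CPM in pericytes of d/d, and 324 and 487 CPM in those of f/f.

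**Figure D4:**
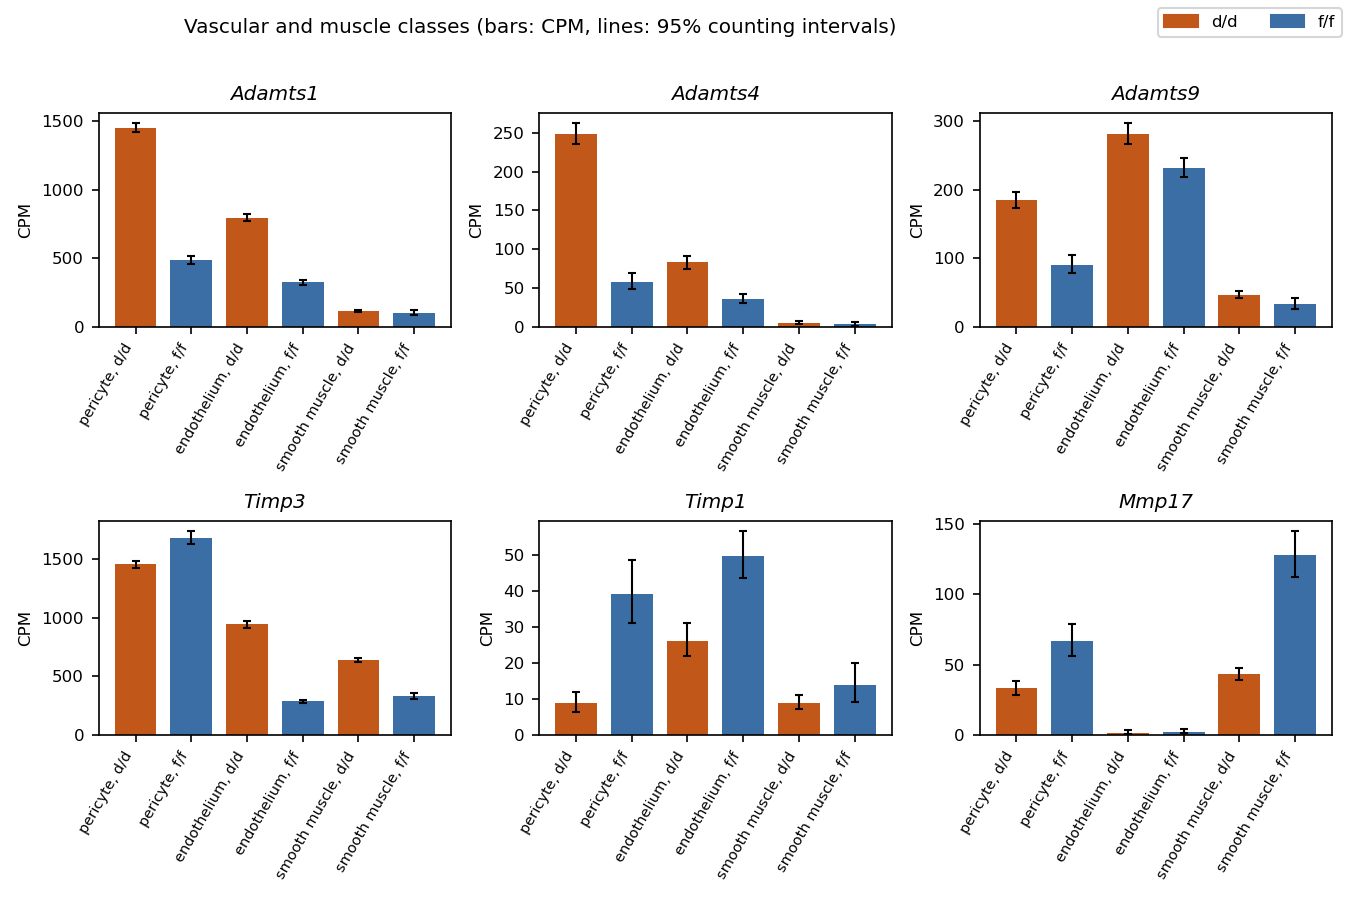
CPM of 6 genes (one panel each) in pericytes, blood endothelium and smooth muscle, d/d in orange left of f/f in blue, with 95% counting intervals. Adamts1 and Adamts4 are higher in d/d in pericytes and endothelium, Timp3 is higher in d/d in endothelium (944 against 286 CPM) and smooth muscle (642 against 328 CPM), and Mmp17 is lower in d/d smooth muscle.

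In smooth muscle, 27 genes were measured. Of these, 4 were at least 1.5-fold higher in d/d (10.7% of all 10127 measured genes were) and 11 were lower (16.5% of all). With TMM factors the split was 6 higher and 6 lower, so the count of lower genes depends on the scaling. The median over all genes then went from -0.13 to 0.05, and no share over all genes is given for that scaling. Mmp17, a membrane-anchored enzyme that in mouse vessels is known from the muscle layer, was at 43.2 CPM in d/d and 128 CPM in f/f (log2 fold -1.57, -1.80 to -1.33). It was at -1.58 in the muscle cluster led by Pcp4 (909 d/d and 301 f/f cells), but at -0.45 with an interval that spans 0 in the one led by Acta1. Mmp17 UMIs were found after thinning in 9.36% of 1399 d/d and 22.8% of 386 f/f cells, and unthinned in 21.0% and 36.3%.

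Timp3 was at 642 CPM in d/d and 328 CPM in f/f smooth muscle (log2 fold 0.97, 0.85 to 1.09), with 1.31 and 0.35 in these 2 muscle clusters. Mmp23 was at 58.5 CPM in d/d and 91.2 CPM in f/f (-0.64), Adamts2 at 25.5 CPM in d/d and 38.4 CPM in f/f (-0.59), and Adamts5 at 31.3 CPM in d/d and 17.4 CPM in f/f (0.84). Timp2 and Mmp14 were within 1.5-fold, at -0.26 and -0.46. The stromal markers summed to 1730 CPM in d/d and 2371 CPM in f/f smooth muscle, or 9.13% and 21.2% of their stromal level, and their part in the lower values was not tested.

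In epithelium, 7 genes were measured, of which 2 were at least 1.5-fold higher in d/d (15.5% of all 8724 measured genes were) and 3 were lower (24.1% of all). Mmp15, at chr8:95352268-95375080, was at 89.8 CPM in d/d (376 UMIs) and 18.9 CPM in f/f (41 UMIs), a log2 fold of 2.25 (1.78 to 2.75). The f/f epithelium consisted of 74 luminal-like and 105 glandular-like cells, while 145 of the 146 d/d cells matched neither part. Set against the luminal-like part of f/f, at 17.1 CPM, Mmp15 had a log2 fold of 2.39, and set against the glandular-like part, at 20.5 CPM, one of 2.13. It was thus of similar size against either f/f part. After thinning, 20.3% of 143 d/d and 4.07% of 172 f/f cells had an Mmp15 UMI, and unthinned the shares were 73.3% and 18.3%, at median depths of 16177 and 9289 UMIs.

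Adamts6 was the other higher gene, at 18.1 CPM in d/d (76 UMIs) and 8.73 CPM in f/f (19 UMIs), with a log2 fold of 1.06 (0.31 to 1.86). Timp3 was at 30.6 CPM in d/d and 73.1 CPM in f/f (-1.26, -1.61 to -0.91), Timp2 at 10.3 CPM in d/d and 21.1 CPM in f/f (-1.04), and Adamts9 at 20.1 CPM in d/d and 36.8 CPM in f/f (-0.88). These depended on the part of the f/f epithelium. With the luminal-like part as the reference Timp3 had a log2 fold of -1.78, and with the glandular-like part -0.51. For Adamts9 these were 0.00 and -1.34. The stromal markers summed to 159 CPM in d/d and 525 CPM in f/f epithelium, or 0.84% and 4.69% of their stromal level. Their part in the lower values of Timp3, Timp2 and Adamts9 was not tested. Adamts16, which was highest in epithelium of both libraries, had 20.8 CPM in d/d, against 8.57 CPM in f/f luminal-like and 39.2 CPM in f/f glandular-like cells.

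In macrophages or monocytes, 8 genes were measured, of which 2 were at least 1.5-fold higher in d/d (17.3% of all 5222 measured genes were) and 4 were lower (27.6% of all). Mmp12, the macrophage elastase, lies at chr9:7344381-7369499 and carries the motif shown above at 1 of its RefSeq starts. It was at 547 CPM in d/d (788 UMIs) and 22.7 CPM in f/f (16 UMIs), a log2 fold of 4.59 (3.88 to 5.41). The end of Mmp12 overlaps that of Mmp1b on the opposite strand, and no UMI was assigned to Mmp1b. The UMIs came from few cells: 48 of 304 d/d macrophages (15.8%) and 3 of 245 f/f macrophages (1.22%) had any. The top 10% of d/d macrophages by Mmp12 count held 96.3% of its UMIs in the class, and 1 cell alone had 156. Thinned to 2000 UMIs, which left out 50 d/d and 120 f/f cells, 34 of 254 d/d cells (13.4%, 9.45 to 18.2) and 3 of 125 f/f cells (2.40%, 0.498 to 6.85) had an Mmp12 UMI. In stroma, which should lack the gene, the unthinned shares were 0.353% in d/d and 0.106% in f/f. The median depth was 4304 UMIs in d/d and 2013 in f/f macrophages, and 7014 and 6597 UMIs in stroma. Dendritic cells had 26 UMIs of Mmp12 in d/d and none in f/f.

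Mmp13, the neighbouring interstitial collagenase with the same motif, had 24 UMIs in all d/d cells, 22 of them in macrophages, and 2 UMIs in f/f, none of them in macrophages. Mmp19 was at 56.2 CPM in d/d macrophages (81 UMIs) and 24.1 CPM in f/f macrophages (17 UMIs), a log2 fold of 1.22 (0.46 to 2.07). Mmp14 and Timp2 were within 1.5-fold, with 129 CPM in d/d and 152 CPM in f/f for Mmp14 and 378 CPM in d/d and 429 CPM in f/f for Timp2. Adamts1, Adamts5, Mmp2 and Timp3 were lower in d/d macrophages, at log2 folds of -2.03, -1.26, -1.18 and -0.94. The 12 stromal markers summed to 819 CPM in d/d and 4229 CPM in f/f macrophages, or 4.32% and 37.8% of their stromal level, with all 12 above 0 in both. Such UMIs can come from free RNA, which is present in droplets without coming from the cell. Mmp2 in f/f macrophages was at 40.3% of its stromal level, close to that share. Adamts1 in d/d macrophages was at 1.77% of its pericyte level, below the 2.72% that pericyte markers reached there. The part of stromal RNA in these 4 differences was not tested.

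**Figure D5:**
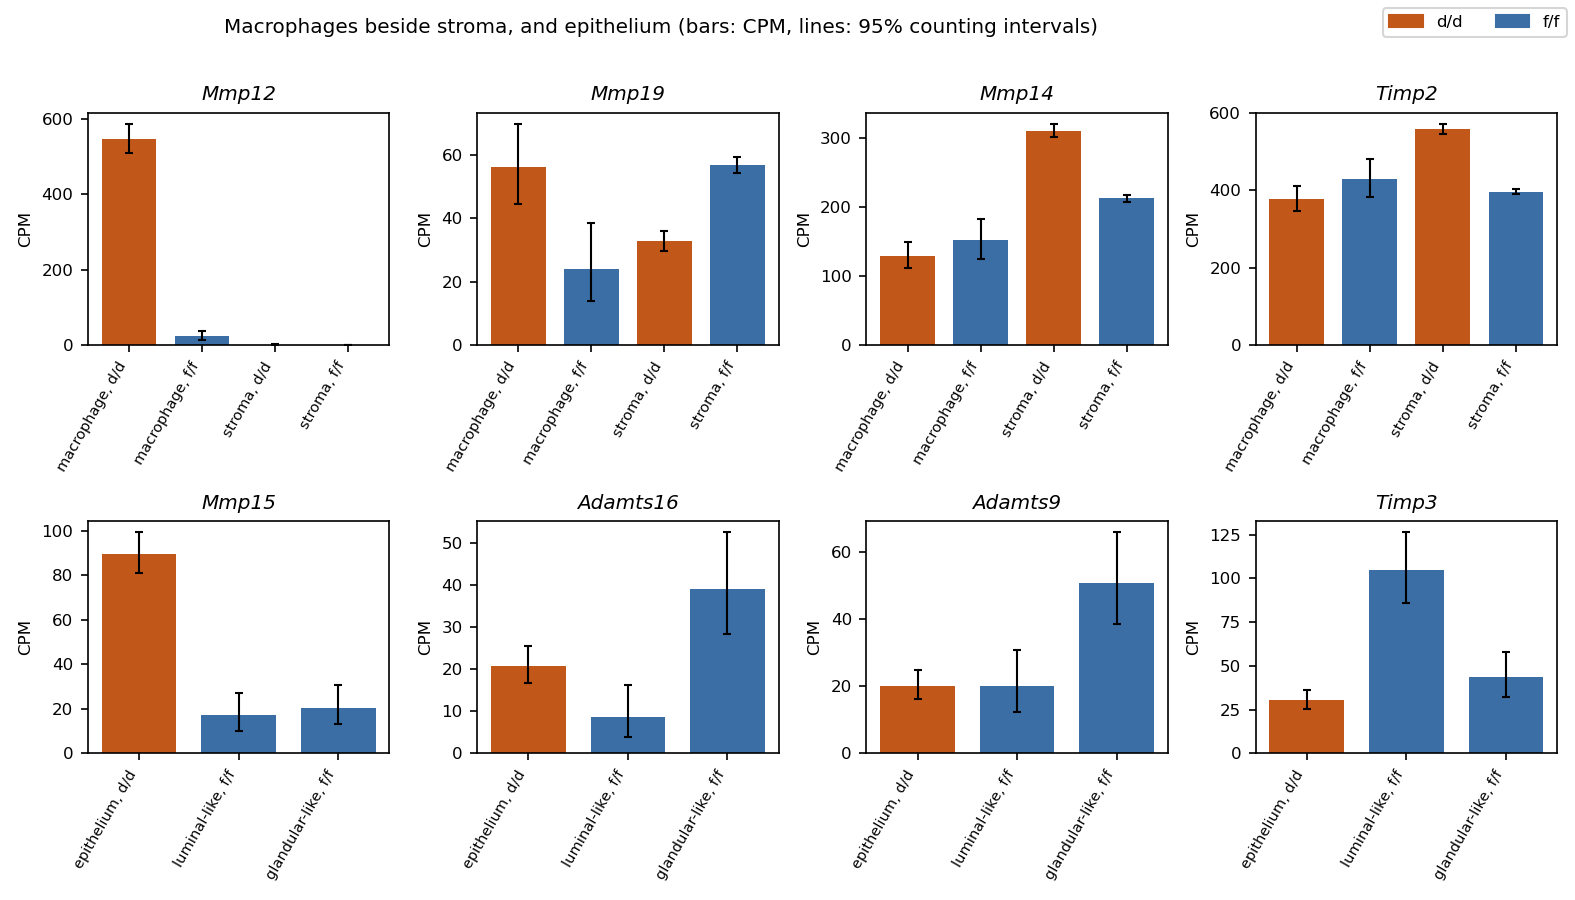
Top row: CPM of 4 genes in macrophages or monocytes and, beside them, in stroma. Bottom row: CPM of 4 genes in d/d epithelium and in the luminal-like and glandular-like parts of f/f epithelium. d/d bars are orange and f/f bars blue, with 95% counting intervals. Mmp12 is at 547 CPM in d/d and 22.7 CPM in f/f macrophages, and Mmp15 is at 89.8 CPM in d/d epithelium against 17.1 and 20.5 CPM in the f/f parts.

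In dendritic cells only Adamts1, Timp2 and Timp3 were measured, with 10 to 41 UMIs in each library. Adamts1 UMIs were found in 7 of 141 d/d and 9 of 154 f/f cells, and 1 d/d cell held 25 of the 41 d/d UMIs. Of the 3 genes, 2 were at least 1.5-fold higher in d/d (12.8% of all 3082 measured genes were) and 1 was lower (25.5% of all). With TMM factors 2 were higher and none lower, and no share over all genes is given for that scaling.

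The remaining genes had few UMIs, and most of these lay in 1 or 2 classes. Mmp9, the other gelatinase, had 127 UMIs in d/d and 32 in f/f, of which 85 and 21 were in smooth muscle, at 9.77 CPM in d/d and 10.8 CPM in f/f, and 16 in d/d T cells. Adamts8 had 144 UMIs in d/d and 45 in f/f, mostly in smooth muscle (75 and 12) and pericytes (49 and 5). Adamts18 had 28 of 35 UMIs in d/d and 30 of 33 in f/f in blood endothelium. Adamts14 was found in NK or innate lymphoid cells too, at 70.4 CPM in 36 d/d cells and 63.5 CPM in 220 f/f cells. Timp4 had 28 UMIs in d/d and 12 in f/f, of which 13 and 8 were in epithelium. Mmp25 had 13 of its 26 d/d UMIs in T cells. Mmp7, which is known in mouse as an enzyme of mucosal epithelia, had 3 UMIs in d/d and 1 in f/f, all of them in epithelium. Mmp8, Mmp10, Mmp21, Mmp24, Mmp27 and Adamts13 had at most 4 UMIs in a library, and Mmp28 and Adamts20 had 11 and 14 in d/d and 16 and 31 in f/f. Adamts17 had 113 UMIs in d/d and 213 in f/f, mostly in stroma (94 and 194).

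The wider protease system was followed with 35 regulators and activators of these enzymes and 18 of their matrix substrates. In stroma 12 of 29 measured regulators were at least 1.5-fold higher in d/d and 2 lower (median log2 fold 0.23), and 10 of 17 substrates were higher and 1 lower (0.76), where 15.5% of all measured genes were higher and 20% lower. In the shared cluster the counts were 8 higher and 6 lower of 27 regulators (-0.02), and 1 higher and 5 lower of 17 substrates (-0.47), where 11.6% of all were higher and 15.2% lower. Among the stromal genes with the largest folds were A2m, a broad protease inhibitor (3.68), the collagenolytic cathepsin Ctsk (1.78), Thbs2 (1.60), the procollagen protease enhancer Pcolce2 (1.56) and elastin, Eln (1.49). Within the shared cluster A2m stood at 1.28, Ctsk at 0.77, Thbs2 at 0.34 and Eln at 0.23. For Pcolce2 no value in the shared cluster is given here. A2m leads the d/d stromal cluster, so its fold over all stroma partly restates the cluster split.

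In pericytes 10 of 18 substrates were at least 1.5-fold lower in d/d and 1 was higher (25.2% and 13.1% of all measured genes were), and in the well-filled pericyte cluster 6 of 17 were lower and 2 higher (22.4% and 11.6% of all). Among those lower over all pericytes was the Adamts1 and Adamts4 substrate versican (Vcan, 21.0 CPM in d/d and 87.6 CPM in f/f, log2 fold -2.06). In blood endothelium 8 of 16 were lower and none higher (12.0% and 11.2% of all), with Vcan at -1.96 and fibronectin (Fn1) at -1.88. In smooth muscle 9 of 17 were lower and none higher (16.5% and 10.7% of all), with Fn1 at -2.42. Stromal markers were lower in the same d/d classes, as given above, and their part was not tested. Dcn, Lum, Col1a1 and Col3a1 are both stromal markers and listed substrates, so marker and substrate values are not independent. Pcolce is both a stromal marker and a listed regulator. In macrophages all 14 measured substrates were lower, while 8 of 18 regulators were higher and 4 lower (17.3% of all measured genes were higher and 27.6% lower). Of the regulators, the urokinase receptor Plaur was at 334 CPM in d/d and 26.9 CPM in f/f macrophages (3.63), Thbs1 at 688 CPM in d/d and 66.6 CPM in f/f (3.37), and the membrane protease Adam8 at 74.3 CPM in d/d and 11.3 CPM in f/f (2.71). In epithelium 9 of 11 substrates were lower and 1 higher (24.1% and 15.5% of all). Stromal markers were at 4.32% of their stromal level in d/d macrophages and 37.8% in f/f macrophages. In epithelium they were at 0.84% in d/d and 4.69% in f/f. Their part in the lower substrates of both classes was not tested. The regulator Pcolce2 had 181 UMIs in d/d epithelium and 1 UMI in f/f epithelium.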

How the data were processed

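Per the submitters' processing notes, the authors used Cell Ranger 3.0.1 and mm10, while the deposited matrix headers name version 6.0.1. The deposited values are raw UMI counts per gene and barcode (44745031 in the d/d and 55080123 in the f/f library). Coordinates are from a GENCODE annotation of GRCm38. Barcodes with at least 1000 UMIs, 500 genes and at most 20% mitochondrial UMIs were kept. Scrublet scores marked 355 d/d and 533 f/f barcodes as doublets, at 0.8% per 1000 barcodes, and these were removed. They were the barcodes with the highest scores, in a number set by library size. Scrublet's own threshold, which was not used, marked 400 d/d and 0 f/f barcodes. Counts were scaled to 10000 per cell, logged and clustered without integration in scanpy 1.11.5 (2000 variable genes, 30 components, 15 neighbours, Leiden resolution 1), leaving the 50 genes out of the variable genes. Classes were named from marker lists, and an epithelial sub-cluster led by smooth muscle genes (18 d/d and 63 f/f cells) was set aside. For each class of a library the UMIs of a gene were summed and scaled by the sum over all genes (CPM). Folds have conditional exact intervals, levels Poisson intervals and shares Clopper-Pearson intervals. Fewer cells with RNA of a gene and less of its RNA per cell cannot be told apart in such sums. Free RNA was judged by setting the level of a gene, as a share of its highest class, beside the same share for that class's markers. Named genes had at least 50 summed UMIs and 20 CPM in a compared class, above that share. This covers free RNA from the highest class only. For Timp2 and Timp3 that class was lymphatic endothelium, whose markers reached 0.28% in f/f epithelium, where stromal markers reached 4.69%. A named gene is thus not shown to be above free RNA from other classes. For regulators and substrates, up to 6 per class with the largest fold and at least 100 UMIs could be named, of which 1 is not reported here. The genes and lists were chosen with earlier results of these data known. edgeR 4.0.16 gave the TMM factors. The interval calculation was run on simulated Poisson counts, which is the model it assumes. Those counts had no clumping of UMIs in single cells and no variation between libraries. The run thus cannot show how well the intervals hold for these data.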

Additional observations from a re-analysis of the deposited data

Results flagged for a closer look

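For 7 genes the d/d over f/f log2 fold had opposite signs in 2 classes, each past 1.5-fold and with counting intervals that do not include 0. Only classes in which the gene was named and had at least 100 UMIs summed over both libraries were looked at. Genes with opposite signs on fewer UMIs, such as Mmp19 in stroma and macrophages, are thus not among them. With 1 library per genotype the difference between classes was not tested. Adamts1 was at 1.57 in pericytes and -2.03 in macrophages or monocytes, where its d/d level was 1.77% of that in pericytes and pericyte markers reached 2.72%. Adamts2 was at 0.80 in stroma and -0.59 in smooth muscle, but at -0.34 in the shared stromal cluster. Adamts7 was at 0.66 in stroma and -1.31 in pericytes, and at 0.34 in the shared stromal cluster. Adamts9 was at 1.03 in pericytes and -0.88 in epithelium, but at 0.51 in the well-filled pericyte cluster and at 0.0034 against f/f luminal-like epithelium. Adamtsl1 was at 1.42 in stroma and -0.60 in smooth muscle, and at 0.49 in the shared stromal cluster. Mmp2 was at 1.63 in stroma and -1.18 in macrophages or monocytes. Timp3 was at 0.71 in stroma and -1.26 in epithelium, and at -0.51 against f/f glandular-like epithelium. Stromal markers in macrophages were at 4.32% of their stromal level in d/d and 37.8% in f/f, and in pericytes at 30.4% and 59.2%. In smooth muscle they were at 9.13% in d/d and 21.2% in f/f, and in epithelium at 0.84% and 4.69%. Their summed level in stroma was 18945 CPM in d/d and 11192 CPM in f/f, so the percentages have different bases. In pericytes the sums were 5754 CPM in d/d and 6627 CPM in f/f. The part of stromal RNA in the negative values of these classes was not tested.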

How the results depend on the processing

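No paired analysis was possible because there is 1 library per genotype and no replicate number. For the same reason no replicate could be left out. Class totals set the scale: the median log2 fold of all genes with them and with TMM factors was -0.19 and 0.27 in macrophages, -0.21 and 0.20 in dendritic cells, -0.21 and 0.03 in pericytes, -0.14 and 0.07 in epithelium, -0.13 and 0.05 in smooth muscle, and -0.13 and -0.08 in stroma. Of the alternative values, 180 counts or medians and 472 folds of named genes stayed close to their main value, 54 and 88 moved, and 2 and 7 reversed. Class sums of few UMIs limit epithelium, macrophages and dendritic cells most.

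A value counts as reversed where it was past 1.5-fold and changed sign. Reversed folds were those of Adamts2 (-0.34), Adamts5 (-0.81) and Mmp3 (-0.063) in the shared stromal cluster alone, Adamts5 (-0.69) and Adamtsl1 (-0.91) in 1 pericyte cluster alone, Adamts9 against f/f luminal-like epithelium (0.0034), and Timp3 in macrophages with doublet calls kept (0.17). Adamts1, under 1.5-fold over all stroma (0.43), was at -0.31 in the shared cluster. The alternatives with 1 cluster alone were chosen after seeing the data.

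The counts of higher and lower genes moved as follows, main values being those of the report. Except for single clusters, no share over all genes is given under these settings. The counts thus cannot be read as an excess over all genes. With a fold limit of 2, stroma had 7 higher and 2 lower, smooth muscle 0 and 3, pericytes 5 lower, blood endothelium 2 lower and dendritic cells 0 lower. With genes of at least 20 UMIs, blood endothelium had 8 and 8, macrophages 4 and 8, dendritic cells 4 and 2, and epithelium 6 lower. With at least 100 UMIs, epithelium had 1 higher, macrophages 1 higher, blood endothelium 3 lower and smooth muscle 7 lower, and no dendritic gene was left. With a mean of at least 10 CPM, smooth muscle had 2 and 7, blood endothelium 3 lower, macrophages 8 lower and dendritic cells 4 and 2. TMM factors gave smooth muscle 6 lower and dendritic cells 0 lower, and totals without mitochondrial and ribosomal protein genes gave smooth muscle 7 lower. Smooth muscle had 2 lower in the Pcp4 cluster alone, and 2 and 7 in the Acta1 cluster alone. Of all genes measured there, 1291 of 8834 were lower in the Pcp4 cluster. In the Acta1 cluster 938 of 7828 were higher and 1904 lower. The well-filled pericyte cluster alone had 4 and 5. With doublet calls kept, epithelium had 8 lower and macrophages 1 higher. With the genes among the variable genes, epithelium had 5 lower and dendritic cells 0 lower. With libraries clustered separately, epithelium had 6 lower and dendritic cells 0 lower, and at 2000 UMIs per cell dendritic cells had 1 higher.

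The stromal median was 0.56 with doublet calls kept, 0.56 with the genes among the variable genes, 0.50 with separate clustering, 0.37 at 10 CPM and 0.68 when CPM were summed. The epithelial median was -0.98, -1.06 and -1.21 under the first 3 of these and -0.72 at 20 UMIs. The macrophage median was -0.13 with TMM factors, -1.06 at 20 UMIs, -1.22 at 10 CPM and 0.071, reversed, when CPM were summed. Summed CPM also changed the sign of 2 medians under 1.5-fold, to 0.34 in pericytes and 0.081 in smooth muscle, against -0.16 and -0.43, and gave 0.91 in blood endothelium and 0.29 in dendritic cells, whose median reversed to -0.17 with doublet calls kept. The cause was not tested.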
